A study of Mus musculus with 61 samples.

Results

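Sox2 binding sites found in fibroblasts with only 1 of 2 hairpins against Chaf1a, and lying at a gene promoter, are described here gene by gene. They came from lists of Sox2 binding positions at day 3 of reprogramming, 1 list each for the hairpins Chaf1a.166, Chaf1a.2122 and Renilla. Positions of the 3 lists were pooled, neighbours within 200 bp were joined into 1 site, and a site was kept when its positions came from the Chaf1a.166 list alone or from the Chaf1a.2122 list alone and a position lay within 1000 bp of a transcription start site. Start sites (mm9) were those of the deposited Sono-seq table, which lists 5513 starts of 5154 genes. Of 25432 sites in all, 296 met these conditions, 105 of them with Chaf1a.166 alone and 191 with Chaf1a.2122 alone. These sites were chosen by their membership in the lists and their distance to a start, both from the position values themselves, so both are given as a description and no test was applied to them.

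The cells were mouse embryonic fibroblasts from E13.5 embryos of the strain Black6-129X1/SvJ. All carried Col1a1::tetOP-OKSM, a cassette for the 4 reprogramming factors Oct4, Klf4, Sox2 and Myc under a doxycycline-dependent promoter, and R26-M2rtTA, the activator that doxycycline switches on. All were in serum/LIF medium with doxycycline (2 µg/ml) and ascorbate, so the cassette was induced in knockdown and control cells alike. Chaf1a.166 and Chaf1a.2122 cells carried a hairpin against Chaf1a, the large subunit of the chromatin assembly complex CAF-1, and Renilla cells carried a control hairpin against a luciferase. Each hairpin had 1 immunoprecipitate, made with a goat polyclonal antibody against Sox2, and 1 input library, without a replicate. The Sono-seq libraries of day 3, 3 of CAF-1 knockdown and 3 of Renilla, were deposited as 1 value per condition and region, and the hairpin behind the CAF-1 libraries is not stated. Knockdown was not checked here, because samples that measure Chaf1a RNA were not analysed.

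Sox2 is a transcription factor with an HMG box that binds short AT-rich motifs, often beside Oct4 on an octamer motif, and it is a core factor of pluripotent cells. It can bind DNA that is wrapped in nucleosomes. CAF-1 deposits histones H3 and H4 on newly copied DNA and thereby restores nucleosomes behind the replication fork. In pluripotent cells most Sox2 sites lie in distal enhancers, whereas promoters of widely used genes are often CpG-rich and open in many cell types.

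The promoter sequences of 6 genes are shown first. For each hairpin they are the 2 best-scored genes whose Sox2 position lay from 250 bp before to 50 bp after the listed start and which had exactly 1 entry in the promoter table, and the genes with sites of both hairpins that met the same conditions. Better-scored sites outside this window or with several entries, such as those at Rpl22, Hnrpdl and Acin1, are described below without a sequence. They are RefSeq promoters of build GRCm38.p6, from 250 bases before to 50 after the RefSeq start, written 5′ to 3′ along the gene. The Sox2 positions are on mm9, and the RefSeq start can differ from the start in the Sono-seq table, so these are the promoters of the genes and not the measured positions. Capitals mark the SOX core ACAAT or its complement ATTGT, and a longer Sox2 form, ACAAAG or CTTTGT. The octamer ATGCAAAT, or ATTTGCAT, was searched as well and occurs in none of the 6. Hist4h4 (chr6:136804382-136804681, minus strand) encodes a histone H4, and Selk (chr14:29968130-29968429, plus strand) a selenoprotein of the endoplasmic reticulum. Both had a site of Chaf1a.166 alone.
Hist4h4: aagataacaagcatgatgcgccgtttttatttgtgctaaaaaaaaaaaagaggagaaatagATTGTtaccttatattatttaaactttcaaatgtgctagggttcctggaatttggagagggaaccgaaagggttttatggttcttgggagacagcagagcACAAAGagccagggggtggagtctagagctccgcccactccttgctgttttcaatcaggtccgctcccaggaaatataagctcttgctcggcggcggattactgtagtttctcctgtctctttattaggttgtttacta
Selk: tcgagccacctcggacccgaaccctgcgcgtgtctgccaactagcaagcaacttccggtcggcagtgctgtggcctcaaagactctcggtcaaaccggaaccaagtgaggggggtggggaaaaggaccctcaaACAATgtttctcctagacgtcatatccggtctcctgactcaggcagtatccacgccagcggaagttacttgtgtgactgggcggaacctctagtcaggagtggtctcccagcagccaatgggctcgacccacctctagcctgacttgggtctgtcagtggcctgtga
Wasf1 (chr10:40883284-40883583, plus strand) encodes a regulator of actin assembly, and Ppp2r1a (chr17:20945204-20945503, plus strand) the scaffold subunit of a protein phosphatase. Both had a site of Chaf1a.2122 alone.
Wasf1: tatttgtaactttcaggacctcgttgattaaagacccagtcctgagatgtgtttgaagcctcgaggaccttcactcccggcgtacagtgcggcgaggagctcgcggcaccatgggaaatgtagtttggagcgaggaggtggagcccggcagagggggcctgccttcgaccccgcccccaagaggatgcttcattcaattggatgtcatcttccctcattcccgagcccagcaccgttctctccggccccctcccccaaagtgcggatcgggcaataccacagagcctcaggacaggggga
Ppp2r1a: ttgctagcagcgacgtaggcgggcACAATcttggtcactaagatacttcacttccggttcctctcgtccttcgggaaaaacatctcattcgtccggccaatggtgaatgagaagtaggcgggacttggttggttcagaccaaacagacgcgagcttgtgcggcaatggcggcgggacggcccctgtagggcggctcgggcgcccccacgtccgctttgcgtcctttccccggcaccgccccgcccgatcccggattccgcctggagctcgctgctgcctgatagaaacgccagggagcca
Trp53 (chr11:69580109-69580408, plus strand) encodes the tumour suppressor p53, and Zdhhc5 (chr2:84715115-84715414, minus strand) a palmitoyltransferase. Both had a separate site of each Chaf1a hairpin.
Trp53: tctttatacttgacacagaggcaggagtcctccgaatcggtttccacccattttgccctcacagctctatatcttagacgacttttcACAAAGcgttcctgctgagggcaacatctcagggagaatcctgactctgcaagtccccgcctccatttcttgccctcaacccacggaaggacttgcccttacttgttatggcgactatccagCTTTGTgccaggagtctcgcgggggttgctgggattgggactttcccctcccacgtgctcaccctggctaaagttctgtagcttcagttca
Zdhhc5: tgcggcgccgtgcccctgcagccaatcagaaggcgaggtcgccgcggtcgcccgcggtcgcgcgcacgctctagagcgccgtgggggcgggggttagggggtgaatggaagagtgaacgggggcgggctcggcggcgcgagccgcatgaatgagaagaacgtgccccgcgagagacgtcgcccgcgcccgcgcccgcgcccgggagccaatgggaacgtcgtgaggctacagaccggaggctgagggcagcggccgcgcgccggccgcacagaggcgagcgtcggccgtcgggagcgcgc

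In the Hist4h4 promoter the SOX core begins 189 bases before the RefSeq start, and the Sox2 position lay 178 bp upstream of the listed start. In Selk the SOX core begins 117 bases before the start and the position lay 77 bp upstream. In Ppp2r1a these distances are 226 bases and 155 bp. The Trp53 window holds 2 copies of the longer form, beginning 163 and 41 bases before the start, and the Chaf1a.166 position lay 19 bp downstream. Wasf1 and Zdhhc5 hold neither SOX form in this window. A match of so short a motif describes the letters and no more.

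Of the 113 genes of Chaf1a.166 alone 76 had exactly 1 entry in the promoter table, and of the 212 genes of Chaf1a.2122 alone 134 did. A SOX form (either) was present in 35.5% of the 76 promoters of Chaf1a.166 alone (95% exact Clopper-Pearson interval 24.9% to 47.3%). It was present in 38.1% of the 134 promoters of Chaf1a.2122 alone (29.8% to 46.8%), in 35.6% of 87 promoters of Renilla alone (25.6% to 46.6%), and in 54.4% of 180 promoters with a site in all 3 lists (46.9% to 61.9%). Among all 3204 genes of the Sono-seq table with 1 entry the share was 29.5%, and among all 32851 promoters of the reference table it was 42.9%. Both intervals of the Chaf1a hairpins overlap that of Renilla alone and, for Chaf1a.166, include the share of the table's genes. The octamer was found in 2.63% of promoters for Chaf1a.166 (2 genes) and in 2.24% for Chaf1a.2122 (3 genes). It was found in 4.60% for Renilla alone (4 genes), in 6.67% for all 3 lists (12 genes) and in 2.15% of the table's genes. It was found in 1.74% of all promoters of the reference table. The median number of CpG pairs in the 300 bases was 22 for Chaf1a.166, 20 for Chaf1a.2122 and 22 for the table's genes. Over all members the promoters were thus about as CpG-rich as the other listed promoters. Not every Sox2 position lay inside these 300 bases. Where it did, the median was lower, 19 over 41 promoters of Chaf1a.166 and 17 over 60 of Chaf1a.2122. In these promoters a SOX form was present in 39.0% (24.2% to 55.5%) and 40.0% (27.6% to 53.5%), and the octamer in none. Both intervals include the share of the table's genes. Intervals here and below cover counting error only.

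Promoters of the listed starts held 5.26% of the 1997 sites of Chaf1a.166 alone (4.32% to 6.33%) and 4.66% of the 4101 sites of Chaf1a.2122 alone (4.03% to 5.35%). Promoters of genes that the Sono-seq table does not list were not counted. The same share was 4.16% of the 2982 sites of Renilla alone (3.47% to 4.94%) and 2.67% of the 11004 sites in all 3 lists (2.38% to 2.99%). Sites held by 2 lists lay between, at 4.03% for both Chaf1a hairpins, 3.57% for Chaf1a.166 with Renilla and 2.86% for Chaf1a.2122 with Renilla. These shares describe the values that chose the sites and were not tested. With 1 immunoprecipitate per hairpin there is no spread between samples to set these shares against.

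**Figure D1:**
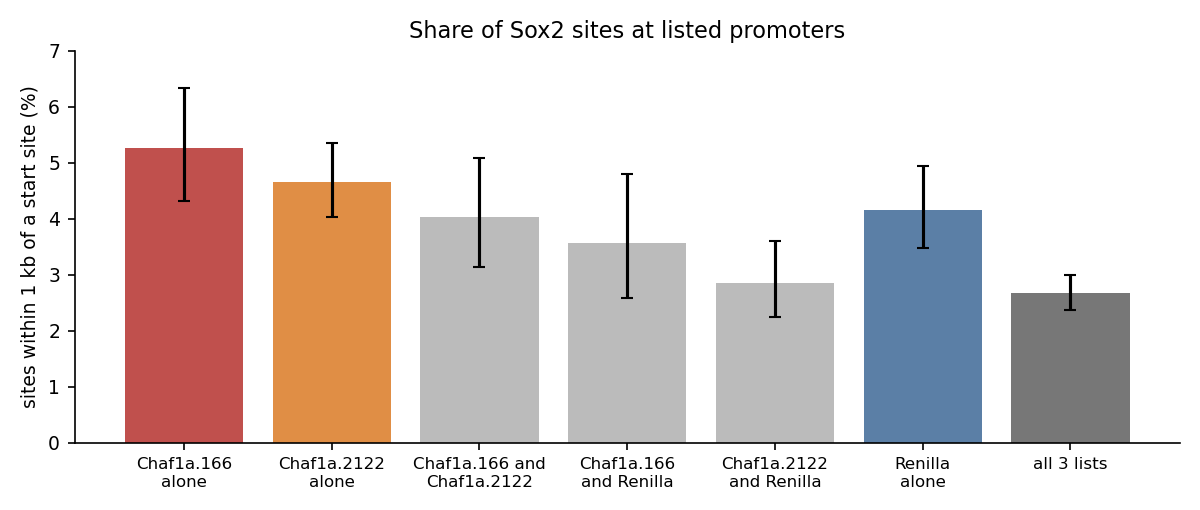
Share of Sox2 sites within 1000 bp of a listed start site (y axis, percent) by the lists that hold the site (x axis), with exact 95% intervals as error bars. Sites of 1 hairpin alone stand at 5.26%, 4.66% and, for Renilla, 4.16%, above the 2.67% of sites in all 3 lists. The classes are not matched for score.

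The Chaf1a.166 sites touched 120 starts of 113 genes, which is 2.18 percent of all listed starts and 2.19 percent of the genes. The Chaf1a.2122 sites touched 223 starts of 212 genes, or 4.04 percent of starts and 4.11 percent of genes. Together they touched 322 genes, which is 6.25 percent of the genes of the table. Of the sites, 14 of Chaf1a.166 and 33 of Chaf1a.2122 lay within 1000 bp of several starts. Each member site consisted of a single position. With the best 15888 positions of every list, the length of the shortest, 130 promoter sites were of Chaf1a.166 alone and 111 of Chaf1a.2122 alone, so Chaf1a.2122 had the lower count. With positions of an enrichment lower bound of at least 2 the counts were 86 and 108, so Chaf1a.2122 had the higher one.

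The scores of the members were low within their own lists. The score is the authors' value for a position, and its scale is not given. The members of Chaf1a.166 had a median score of 16.8 (range 14.8 to 27.9), and the lowest score of that list of 15888 positions was 14.8. The members of Chaf1a.2122 had a median of 14.5 (12.5 to 29.8), and the lowest score of that list of 19319 positions was 12.4. The Renilla list holds 17681 positions with a lowest score of 13.3. Because the lists end at different scores, each score was also taken above the lowest of its own list, and the median was then 2.03 for Chaf1a.166 and 2.04 for Chaf1a.2122.

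Of the Chaf1a.166 members, 50 of 105 (47.6%) scored within 2 units of the lowest score, as did 94 of 191 (49.2%) Chaf1a.2122 members. Over all positions of the lists these shares were 16.8% and 18.9%. Promoter sites of Renilla alone were low in their list too, with a median score of 15.2 and 70 of 124 within 2 units of its lowest score. Low scores are thus not particular to the Chaf1a hairpins. By rank, 71 members of Chaf1a.166 (67.6%) and 116 of Chaf1a.2122 (60.7%) fell in the lowest 25% of their list, and 96.2% and 95.3% in the lowest 50%. The enrichment over input, a further value of the authors, had a median of 5.20 for Chaf1a.166 members, against 8.37 for their whole list. For Chaf1a.2122 members it was 5.12, against 7.46. Scores at listed promoters and elsewhere were alike. Sites of Chaf1a.166 alone had a median score of 16.8 at listed promoters and 16.8 elsewhere, and those of Chaf1a.2122 alone 14.5 and 14.6. Elsewhere means farther than 1000 bp from any listed start, so it can include promoters of unlisted genes.

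The promoter share was also taken by score. Within 2 units of the lowest score, 5.09% of sites of Chaf1a.166 alone, 4.79% of Chaf1a.2122 alone and 4.70% of Renilla alone lay at a promoter. Between 2 and 5 units they were 6.02%, 4.56% and, for Renilla, 3.68%. Between 5 and 10 units these shares were 4.39% for Chaf1a.166, 4.91% for Chaf1a.2122 and 3.50% for Renilla. Over 10 units they were 4.62% (3 sites), 1.87% (2 sites) and, for Renilla, 3.57% (3 sites). Positions of sites in all 3 lists varied with score too. Within 2 units, 1.84% of these in the Chaf1a.166 list, 3.99% in the Chaf1a.2122 list and 4.78% in the Renilla list lay at a promoter. Over 10 units the shares for all 3 lists were 2.38%, 2.29% and 2.05%. The gap between sites of 1 list and of all 3 was thus smaller or absent at low scores for Chaf1a.2122 and Renilla, but not for Chaf1a.166. Read depth is unknown, and a position that a list lacks may have fallen short of its cutoff, so a site of 1 hairpin alone is not shown to be unbound in the other cells.

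**Figure D2:**
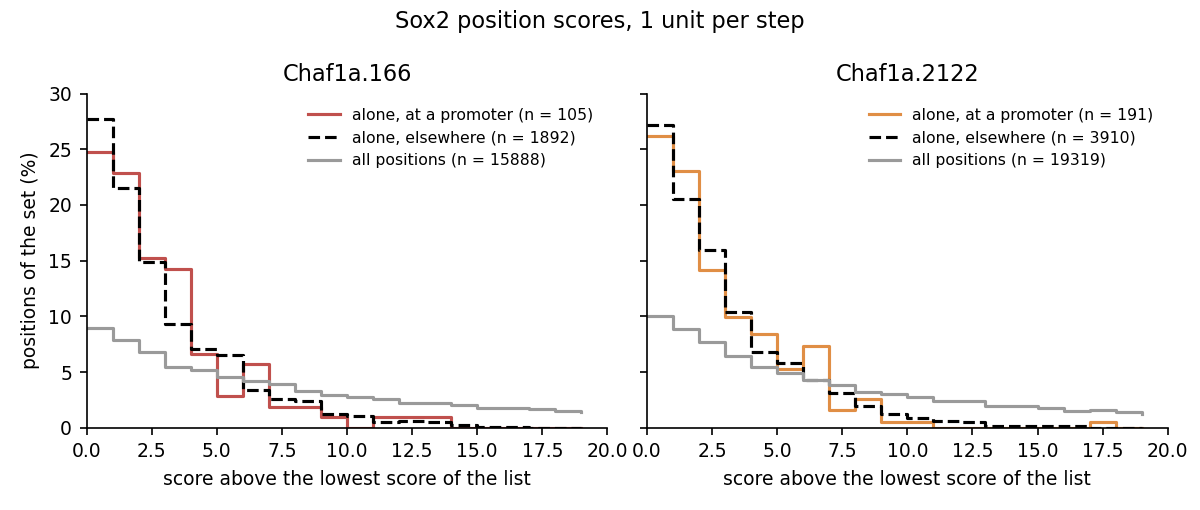
Share of positions (y axis, percent of the set) by score above the lowest score of the same list (x axis, steps of 1 unit, shown up to 20), for Chaf1a.166 (left) and Chaf1a.2122 (right). Promoter sites of 1 hairpin alone (coloured) and the other sites of that hairpin alone (dashed) follow nearly the same course, with 47.6% and 49.2% of promoter sites in the first 2 steps, while the whole list (grey) reaches far higher scores.

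For Chaf1a.166 the best score was at Rpl22, a protein of the large ribosomal subunit (chromosome 4, position 151699817, mm9). It lay 169 bp upstream of the start with a score of 27.9, rank 6175, and the nearest Chaf1a.2122 and Renilla positions were 32042 and 79759 bp away. Its enrichment over input was 3.42, the lowest of the 8 best-scored sites, with a lower bound of 0.93. Next came Hist4h4, with a score of 26.8. Its nearest Chaf1a.2122 and Renilla positions were only 639 and 610 bp away. Selk followed with 26.7, and Rrbp1, a ribosome-binding protein of the endoplasmic reticulum, with 24.3 at 35 bp upstream. The others of the 8 best were Ptk7, a receptor-like protein of planar cell polarity, Ankrd6, Myo1c, a class I myosin, and Rusc2, with scores of 22.2 to 23.5. Of these 8 sites, those at Hist4h4, Ankrd6 and Rusc2 had positions of both other lists within 1000 bp, and of the other 5 the nearest to another list was Ptk7, at 6187 bp.

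For Chaf1a.2122 the best member lay 121 bp downstream of the start of Hnrpdl, an RNA-binding protein, and 892 bp upstream of that of Enoph1 (chromosome 5, position 100468120, mm9). Its score was 29.8, rank 5181, and positions of Chaf1a.166 and Renilla lay 839 and 736 bp away. The next had a score of 22.6 and lay 131 bp downstream of the start of Acin1, which acts in RNA processing and in chromatin condensation during cell death. Its nearest Chaf1a.166 position was 169193 bp away and its nearest Renilla position 207119 bp. Plekhh2 had 22.0, the shared promoter of Wasf1 and Cdc40 had 21.4, and C230035I16Rik, Agbl5, 3200002M19Rik and Nhlrc3 had 20.7 to 21.0. Cdc40 encodes a splicing factor, and Agbl5 an enzyme that trims tubulin tails. Here too the sites with a near neighbour in another list and those without one stood side by side among the best scores.

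At the low end, the Chaf1a.166 members nearest to the end of the list were at Tmed10, a cargo receptor of the secretory pathway, Etnk1, Irf9, a factor of interferon signalling, Spsb1 and Poln, a DNA polymerase. Their scores were 14.8 to 14.9. For Chaf1a.2122 they were at Dhrs7b, Tnks2, a tankyrase, Tmem11, Zfp747 and Hist1h4c, a histone H4 gene, with scores of 12.5. The Hist1h4c site had a score 0.104 above the lowest of its list. A Chaf1a.166 position lay 176 bp from the Hist1h4c start itself, so the start was near a position of both hairpins although the site was not shared.

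The sites gathered just upstream of the start. The distance to the nearest start had a median of 215 bp for Chaf1a.166 and 212 bp for Chaf1a.2122. Within 100 bp lay 23 sites of Chaf1a.166 and 48 of Chaf1a.2122, and within 250 bp 59 and 103. The strand of the gene was known for 89 Chaf1a.166 sites, of which 65 were upstream and 24 downstream, with a median offset of -117 bp. For Chaf1a.2122 it was known for 149 sites, 103 upstream and 46 downstream, with a median of -122 bp. The window from 250 bases before to 50 after the start held 46 and 64 of them. For comparison, the median distance was 282 bp for Renilla alone and 187 bp for promoter sites of all 3 lists. These counts rest on the single library of each hairpin.

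**Figure D3:**
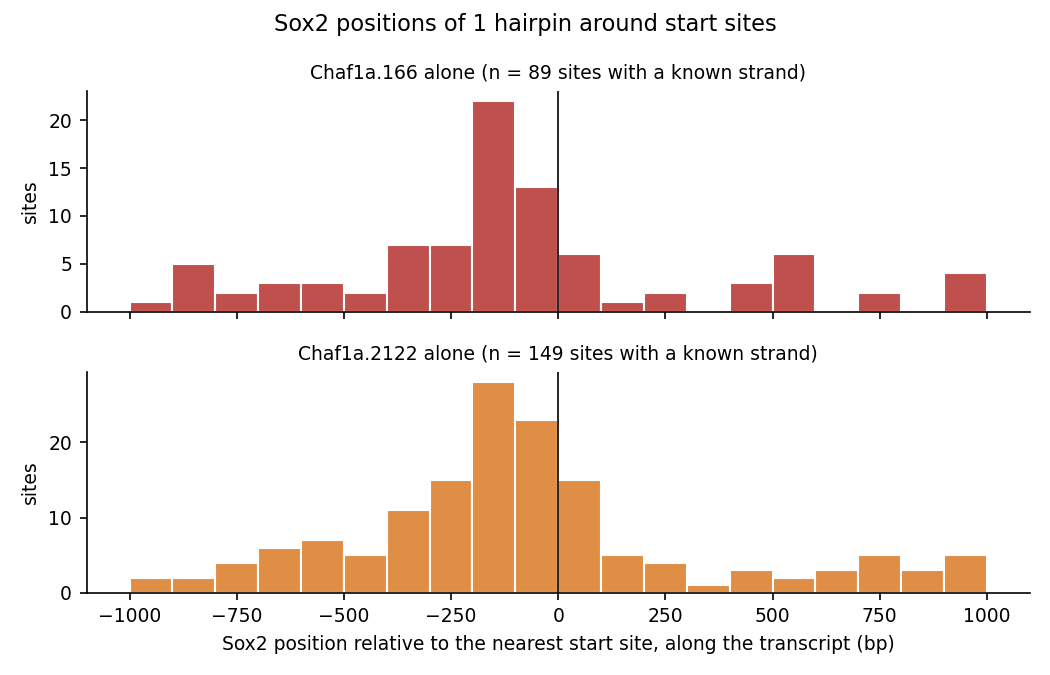
Number of sites (y axis, bins of 100 bp) by the distance of the Sox2 position from the nearest start along the transcript (x axis, bp, negative is upstream), for Chaf1a.166 alone (top, 89 sites) and Chaf1a.2122 alone (bottom, 149 sites). Both hairpins have their highest bin between 200 and 100 bp upstream, and 65 and 103 sites lie upstream.

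The closest Chaf1a.166 sites lay 2 bp upstream of a start of Igsf9, an adhesion protein, 5 bp downstream of Cwf19l2, a splicing-related protein, 9 bp downstream of Zcchc6, a terminal uridylyltransferase, 10 bp from Bahcc1 and 11 bp upstream of Ddx17, an RNA helicase. The closest Chaf1a.2122 sites lay 3 bp upstream of Cdadc1, 8 bp upstream of Bclaf1, a transcriptional regulator, 9 bp from Rpl30, 9 bp from Wwox, an oxidoreductase and tumour suppressor, and 13 bp from Clasp1, a microtubule-binding protein. Scores at these 10 sites ran from 12.8 at Bclaf1 to 19.4 at Ddx17. The Clasp1 start also had a site in all 3 lists. At the other edge, the last sites inside the limit were at Asxl1 (932 bp), Trim2 (931 bp) and Tuba1b (912 bp) for Chaf1a.166, and the first outside at Nedd4l (1028 bp), Lsm2 (1030 bp) and Zbtb25 (1039 bp). For Chaf1a.2122 the last inside were at Mdm2 (998 bp), S100a10 (995 bp) and Zfp532 (964 bp), and the first outside at Ppp1r8 (1036 bp), Hes6 (1045 bp) and Cds2 (1051 bp).

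The median distance to the nearest position of the other Chaf1a hairpin was 19967 bp for Chaf1a.166 and 20578 bp for Chaf1a.2122, and to the nearest Renilla position 26224 and 22177 bp. A position of either other list lay within 500 bp of 3 Chaf1a.166 sites and 12 Chaf1a.2122 sites, within 1000 bp of 14 and 20, and within 10 kb of 46 (43.8%) and 76 (39.8%). Over all starts, 41.2% had a position of any list within 10 kb. By single list the share of starts was 28.4% for Chaf1a.166, 33.2% for Chaf1a.2122 and 29.1% for Renilla. The members' shares are measured from sites and leave out their own list, so they cannot be compared directly with these shares of starts. The sites just beyond the joining distance were at Zfp36l1 (291 bp), Casc5 (315 bp) and Zdhhc5 (474 bp) for Chaf1a.166, and at Abhd2 (209 bp), Socs3 (212 bp) and Hspa9 (271 bp) for Chaf1a.2122. The shared promoter sites with the widest gaps inside it were at Hbp1 (176 bp), Ppm1b (182 bp) and Slc35e4 (189 bp). A site of 1 hairpin was therefore not always a promoter of 1 hairpin: 15 of the 120 Chaf1a.166 starts and 26 of the 223 Chaf1a.2122 starts had a position of another list within 1000 bp of the start (12.5% and 11.7%). Over all 5513 starts, 10.1% had a Chaf1a.166 position within 1000 bp, 12.4% a Chaf1a.2122 position and 10.5% a Renilla position. A position of any list lay within 1000 bp of 17.25% of all starts. The members' shares leave out their own list, and joining had taken out sites with another list's position within 200 bp. No share of all starts counted in the same way is given here, so the members' shares cannot be set against a background.

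Trp53, Zdhhc5 and S100a10 had separate sites of both Chaf1a hairpins. At Trp53 the Chaf1a.166 site lay 19 bp downstream of the start with a score of 16.8, and the Chaf1a.2122 site 811 bp downstream with a score of 20.0. The nearest Renilla position was 1681 bp from that start. At Zdhhc5 the Chaf1a.166 site lay 147 bp upstream (score 21.0) and the Chaf1a.2122 site 621 bp upstream (score 14.7), which is 474 bp between them. S100a10, a calcium-binding protein partner of annexin, had the sites at 855 bp (Chaf1a.166, score 16.8) and 995 bp (Chaf1a.2122, score 16.0) on opposite sides of its start. The nearest Renilla positions were 576 bp from the Chaf1a.166 site and 865 bp from the Chaf1a.2122 site. No other gene of the 322 had a site of both.

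Of the gene groups with 20 or more genes, histone genes had the highest share with a site of either Chaf1a hairpin alone (21.1%, against 6.25 percent of all genes). Of 57 genes of the table with a Hist symbol, a group picked after its values were seen, 3 had a site of Chaf1a.166 alone (5.26%), against 2.19 percent of all genes. Another 9 had a site of Chaf1a.2122 alone (15.8%), against 4.11 percent of all genes. Of the same 57 genes, 3 had a site of Renilla alone and 10 (17.5%) a site in all 3 lists, against 5.98% of all genes. Hist1h2bm was in both of these sets, and Hist4h4 also had a site in all 3 lists. The 12 genes rest on 10 sites, of which 8 lie in the Hist1 cluster on chromosome 13, and 3 pairs of genes shared a site. Histone gene copies are nearly identical in sequence, and how reads that fit several copies were treated is not stated here, so a position there may belong to another copy.

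The Chaf1a.166 histone sites were at Hist4h4, at Hist1h3h, which encodes a histone H3 (115 bp upstream, score 15.6), and at Hist1h2bm, which encodes a histone H2B (894 bp upstream, score 16.5). The Hist1h2bm start had a Chaf1a.2122 position at 204 bp and a Renilla position at 213 bp. The best Chaf1a.2122 histone site (score 18.5) lay between Hist1h2ak and Hist1h2bn, 142 and 153 bp upstream of them. The others were at Hist1h4a (85 bp upstream, score 17.0), at Hist1h1b, the gene of a linker histone (20 bp downstream, score 14.8), at the shared promoter of Hist1h2an and Hist1h2bp with 2 sites (scores 15.4 and 13.1), at Hist3h2a and Hist3h2bb (score 12.9), and at Hist1h4c. These histone genes are transcribed mainly while DNA is copied. CAF-1 deposits H3 and H4, and the genes here also encode H2A, H2B and linker histones. Their Sono-seq values went both ways: Hist1h4c had 0.0993 in CAF-1 cells, against 0.0754 in Renilla cells, and Hist1h2ak had 0.0683 in CAF-1 cells, against 0.0948 in Renilla cells. Over the 12 starts, 8 were higher in CAF-1 cells and 4 lower, with a median log2 ratio of 0.061.

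Of 54 genes with a ribosomal protein symbol, 2 had a site of Chaf1a.166 alone (3.70%, against 2.19 percent of all genes), namely Rpl22 and Rpl23a. Another 5 (9.26%, against 4.11 percent of all genes) had a site of Chaf1a.2122 alone, among them Rpl30, Rps27a and Rps19bp1. The last encodes a binding partner of a ribosomal protein and not a ribosomal protein. Sites of Renilla alone were at 2 genes of the group, and sites of all 3 lists at another 2. In the group of mitochondrial ribosome and respiration genes, Chaf1a.166 had Atp5b, Mrpl24 and Mrps18c, and the Chaf1a.2122 genes included Cox7c and Ndufs6, with 3 of 70 (4.29%) for each hairpin, against 2.19 percent of all genes for Chaf1a.166 and 4.11 percent for Chaf1a.2122.

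For the next groups, the shares of all genes were 2.19 percent for Chaf1a.166 and 4.11 percent for Chaf1a.2122, and counts are in that order. Zinc finger genes had 4 of 115 with Chaf1a.166 (3.48%) and 8 with Chaf1a.2122 (6.96%). Among the 8, Zfp91 and Zfp91-Cntf count separately although their starts are neighbours (12870612 and 12870613). Solute carriers had 1 (1.08%) and 6 (6.45%) of 93. Vesicle trafficking symbols had 3 (3.90%) and 4 (5.19%) of 77, although 1 of the 3, Vps72, encodes a subunit of a chromatin remodelling complex. RNA splicing and processing genes, a group that takes in RNA helicases by symbol such as Dhx29 of translation initiation, had 2 of 74 (2.70%) for each hairpin. Ubiquitin and proteasome genes had 3 of 135 (2.22%) for each hairpin. The shares of these groups were close to or below those of all genes. Translation factor and tRNA synthetase genes had 2 (4.35%) and 1 (2.17%) of 46, and kinesin, tubulin and centrosome genes 2 (4.76%) and 1 (2.38%) of 42. None of 87 small nucleolar and other non-coding RNA genes had a site of either hairpin alone, against 6.25 percent of all genes, and 3 had a site of Renilla alone. In the symbol-based group of histone and chromatin enzyme genes, those with a site besides histones were Hdac5, a histone deacetylase, for Chaf1a.166, and Cbx5, a heterochromatin protein that binds CAF-1, and Brd8 for Chaf1a.2122.

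**Figure D4:**
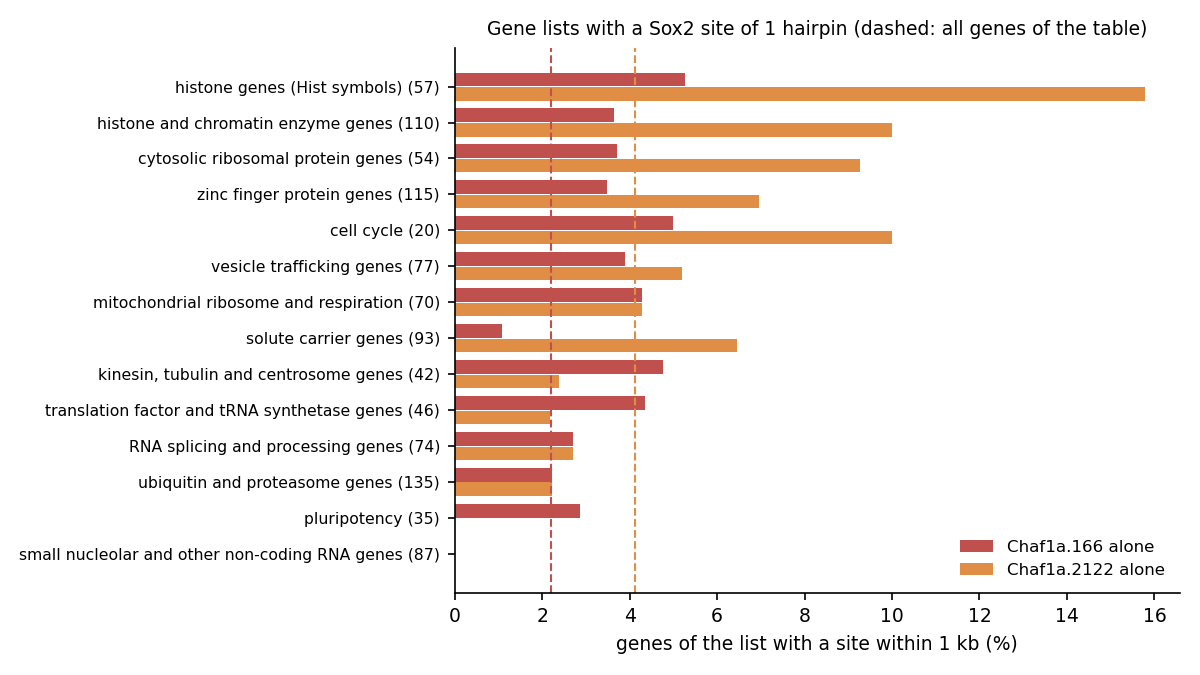
Share of the genes of each group with a site of Chaf1a.166 alone (upper bar) or Chaf1a.2122 alone (lower bar) within 1000 bp of a start (x axis, percent), with the number of genes of the group in the table in brackets and the same shares over all genes as dashed lines (2.19 and 4.11 percent). Histone genes reach 5.26% and 15.8%. The other groups lie on both sides of the lines, from 0% to 5% for Chaf1a.166 and from 0% to 10% for Chaf1a.2122.

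Genes of the pluripotent and the starting cell state were few. Of 35 pluripotency genes in the table only Mycn, a Myc family factor, had a site of Chaf1a.166 alone and none had one of Chaf1a.2122 alone, while 5 had a site in all 3 lists. The Mycn site lay 71 bp upstream of the start, and its score of 15.0 was 0.155 above the lowest of the list. None of 6 fibroblast genes had a site of 1 Chaf1a hairpin alone, and neither did the genes listed for neural, blood, endothelial and muscle cells (5, 1, 3 and 3 genes in the table). Of 9 epithelial genes Ctnna1, a catenin that links cadherins to actin, had a site of Chaf1a.2122 alone (477 bp, score 14.1). Among 9 chromatin assembly genes Cabin1, a subunit of a complex that deposits histone H3.3, had a site of Chaf1a.166 alone (894 bp upstream, score 18.6). Of 20 cell cycle genes, Trp53 had both, and E2f3, a transcription factor of S phase entry, had a site of Chaf1a.2122 alone 86 bp downstream (score 18.8). These lists are short, and the share of all genes with a site of either hairpin alone was 6.25 percent.

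A few further members are named here after their values were seen, with no list behind them and no count to read. Uhrf1, which recruits the maintenance DNA methyltransferase, had a Chaf1a.166 site 215 bp upstream of 1 of its starts (score 18.1). Parp1, an enzyme of DNA repair, had one 246 bp upstream (score 16.3). For Chaf1a.2122 there were Mcm10, a replication initiation factor (139 bp upstream, score 13.9), Cdc45, a part of the replicative helicase (13 bp upstream, score 13.8), and Orc5l, a subunit of the origin recognition complex (347 bp upstream, score 15.1). The nearest position of another list to a start of these 5 genes lay 2349 bp away, at Parp1. Of other roles, Id2, an inhibitor of differentiation factors, had a Chaf1a.166 site 52 bp upstream (score 15.0), and Cyr61, a matricellular protein of fibroblasts, had 2 Chaf1a.2122 sites, 212 bp upstream and 759 bp downstream (scores 13.7 and 13.9).

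Sono-seq, which sequences DNA freed by sonication of cross-linked chromatin and is richer in open regions, was not used to choose the sites. Its unit is not stated in the sources used here, and the values are the authors'. At the Chaf1a.166 starts the median was 0.139 in CAF-1 cells and 0.145 in Renilla cells, and the log2 ratio of CAF-1 to Renilla had a median of -0.052 (quartiles -0.17 and 0.13). Over the 55 of these starts above the median level of all starts the median log2 ratio was 0.045, the other direction. Over all listed starts above that level it was 0.011, so the median of all starts changed sign there too. At the Chaf1a.2122 starts the median was 0.142 in CAF-1 cells and 0.145 in Renilla cells, with a median log2 ratio of 0.0042 (quartiles -0.14 and 0.14). Over all 5513 starts the values were 0.141 in CAF-1 cells and 0.143 in Renilla cells, with a median log2 ratio of -0.0093 (quartiles -0.16 and 0.14). The members' quartiles are thus nearly those of all starts. Of the Chaf1a.166 starts, 46 of 120 (38.3%) were higher in CAF-1 cells, and of the Chaf1a.2122 starts 113 of 223 (50.7%), against 48.2% of all starts.

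A ratio at least 1.2-fold higher in CAF-1 cells was found at 14 of 120 Chaf1a.166 starts (11.7%) and 22 of 223 Chaf1a.2122 starts (9.87%), and at 11.3 percent of all starts. A ratio at least 1.2-fold lower was found at 18 Chaf1a.166 starts (15.0%) and 31 Chaf1a.2122 starts (13.9%), and at 13.3 percent of all starts. All 4 shares lie near those of all starts. Starts with a site of Renilla alone had a median log2 ratio of -0.058, as low as those of Chaf1a.166, and starts with a site of all 3 lists had -0.0039. The level of the members was ordinary too, with 55 of the Chaf1a.166 starts (45.8%) and 124 of the Chaf1a.2122 starts (55.6%) above the median of all starts by their mean of both conditions. Among enhancers that the table pairs with the member genes, the median log2 ratio was -0.0034 over 405 enhancers for Chaf1a.166 and 0.033 over 634 for Chaf1a.2122, against 0.028 over all 14265 enhancers. With 1 value per condition there is no replicate check of any of these ratios, and starts that lie near each other share their DNA.

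**Figure D5:**
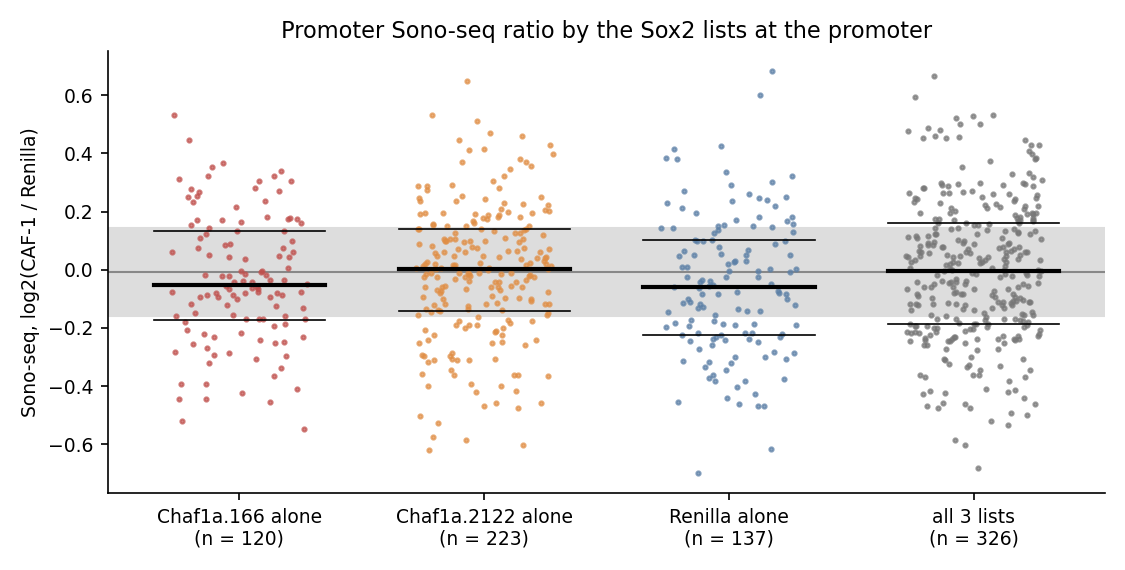
Log2 ratio of the Sono-seq value in CAF-1 cells over that in Renilla cells (y axis) at starts with a Sox2 site of Chaf1a.166 alone, Chaf1a.2122 alone, Renilla alone or all 3 lists (x axis), 1 point per start. Thick lines are medians (-0.052, 0.0042, -0.058 and -0.0039) and thin lines quartiles. The grey line and band are the median and quartiles of all 5513 starts. The 4 classes cover the same range, and a start with sites of several classes stands in each of them.

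The highest ratios at Chaf1a.166 starts were at S100a10, Hdac5, Ogg1, a DNA repair enzyme, Myo1c and Rrbp1, and the lowest at 2410002O22Rik, Lars, the tRNA synthetase of leucine, Tmed10, Sf3a3, a splicing factor, and Gspt1, a translation termination factor. S100a10 had 0.160 in CAF-1 cells, against 0.111 in Renilla cells, a log2 ratio of 0.53. 2410002O22Rik had 0.112 in CAF-1 cells, against 0.163 in Renilla cells, a log2 ratio of -0.55. Myo1c and Rrbp1 were also among the 8 best scores, and Tmed10 had the lowest score of all Chaf1a.166 members. Enrichment over input at these sites ran from 1.60 at Lars (lower bound 0.29) to 30.8 at Gspt1 (lower bound 5.28).

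At Chaf1a.2122 starts the highest ratios were at Dhx29, a helicase of translation initiation, S100a10, Skiv2l2, an RNA helicase of the exosome, Chkb-Cpt1b and Chkb, a choline kinase. Dhx29 had 0.164 in CAF-1 cells, against 0.104 in Renilla cells, a log2 ratio of 0.65. Dhx29 and Skiv2l2 share 1 site, and so do Chkb-Cpt1b and Chkb. The lowest ratios were at 1700034H14Rik, Btf3l4, Fbxo36, Zfp827, a zinc finger protein, and Srm, the spermidine synthase. Of these starts with extreme ratios, those of S100a10, Btf3l4 and Fbxo36 also had a site in all 3 lists. 1700034H14Rik had 0.123 in CAF-1 cells, against 0.189 in Renilla cells, a log2 ratio of -0.62. Enrichment over input at the sites with extreme ratios ran from 0.80 at 1700034H14Rik (lower bound 0.16) to 33.8 at Btf3l4 (lower bound 5.92). At the site of Dhx29 and Skiv2l2 it was 1.93, with a lower bound of 0.63. The best-scored sites showed no common direction: Rpl22 had 0.191 in CAF-1 cells and 0.170 in Renilla cells, Hist4h4 0.136 in CAF-1 cells and 0.161 in Renilla cells, Selk 0.135 in CAF-1 cells and 0.167 in Renilla cells, and Hnrpdl 0.149 in CAF-1 cells and 0.156 in Renilla cells. At Trp53 the values were 0.131 in CAF-1 cells and 0.133 in Renilla cells, nearly the same.

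The Chaf1a.166 sites lay on all listed chromosomes, with 2 to 9 Chaf1a.166 sites on each. Chaf1a.2122 had none on chromosome X, where 139 starts are listed and Chaf1a.166 had 3, and 16 on chromosome 13, where 8 histone sites of both hairpins lie. These counts are small, and the lists of the hairpins differ in length.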

How the data were processed

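Lists of Sox2 binding positions (mm9) were used from 1 immunoprecipitate and its input per hairpin, with the Sono-seq table of mouse ES cell enhancers and promoters. Of 61 samples, 49 were not used here. Per the submitters' processing notes BWA 0.7.8 and Bowtie were used, with no role named, and the position caller is not named in the sources used here. The deposited positions have, per the file headers, a score, an E-value, a q-value (false discovery rate), and a ratio (enrichment over input) with its lower bound. The Sono-seq values were made by the authors and were treated as a score, since their unit, scaling and the way 3 libraries became 1 value are not stated. The table's header calls the knockdown a CAF mutant, while the labels call it CAF-1 knockdown. Read depth is unknown.

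Positions of the 3 lists were pooled and joined within 200 bp, and single-hairpin sites within 1000 bp of a listed start (same chromosome) were kept (Python 3.11.15, pandas 2.3.3, numpy 2.4.6, scipy 1.17.1). In 136 rows a gene symbol had become a date, and it was recovered from the listed RefSeq transcript. Strand and promoter sequences came from RefSeq tables of GRCm38.p6, matched by symbol, and strand was known for 4320 of 5513 starts. No pseudocount was added to ratios, and no value was 0. Intervals of shares are exact Clopper-Pearson at 95% and cover counting error only. With 1 library or 1 value per group no test was run, and no p-value is given. The joining and classing of sites were run on simulated lists with sites far apart and positions of a shared site close together. Gaps near the joining distance of 200 bp were therefore not tried. Named genes are those of the 8 best scores, the 5 nearest to a start, the 5 lowest scores the 5 highest ratios by Sono-seq and the 5 lowest of each hairpin, genes with sites of both hairpins, and members on the 9 gene lists. Other genes named were chosen after their values were seen. The gene groups by symbol are 11, and the group of Hist symbols was added later. Some group members enter the counts but are not reported here. Members, lists and rules were chosen with earlier results of these data known.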

Additional observations from a re-analysis of the deposited data

How the results depend on the processing

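The counts of promoter sites, the shares at a promoter and the median Sono-seq ratios were recomputed, each with its own set of alternatives. These were joining distances, distances to the start, position thresholds, equal list length and scalings of the ratio. Joining distances of 100 and 1000 bp were used for the counts only. The enrichment lower bound of at least 2 was used for the counts and shares but not for the ratios. Scores, offsets, motif shares, gene group counts and shares past 1.2-fold were not recomputed. The count of promoter sites of Chaf1a.166 alone stayed within 1.5 times of 105 under all 8 alternatives (78 to 149). The count for Chaf1a.2122 alone was 111 with the best 15888 positions of every list and 108 with positions of an enrichment lower bound of at least 2, against 191. The Chaf1a.166 counts under these settings were 130 and 86, and those of Renilla alone 93 and 87, so the order of the Chaf1a hairpins turned at equal list length and held with the lower bound. The cause was not tested. A false discovery rate of at most 0.001 removed no position. The share of sites at a promoter for Chaf1a.166 alone was 3.91% with a start within 500 bp, 7.46% within 2 kb and 4.13% with the lower bound of at least 2, and for Chaf1a.2122 alone it was 3.49% within 500 bp and 6.29% within 2 kb. Wider and narrower distances change these shares by construction. The median Sono-seq log2 ratio at Chaf1a.166 starts was 0.045 over the 55 starts above the median level, a change of sign, while the other 7 alternatives gave -0.066 to -0.023. The median over all listed starts also changed sign above that level, from -0.0093 to 0.011. At Chaf1a.2122 starts all 8 alternatives gave -0.0098 to 0.017. No paired analysis was possible because each hairpin has 1 Sox2 immunoprecipitate and Sono-seq was deposited as 1 value a condition. For the same reason no replicate could be left out. Unknown read depth limits every statement that a site is missing from a list.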
